A study of Mus musculus with 4 samples.

Results

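The genes described here encode potassium channels: every gene on the array whose symbol begins with Kcn, apart from Kcne2 and Kcnj13. They were found by matching the RefSeq accession printed for each probe to its symbol, which gave 77 genes read by 103 probes, out of 33269 features (16530 of them with a symbol). Where a gene had several probes, as 22 of the 77 did, the brightest was used. The arrays compared mouse brain tissue taken 6 h after a filament inside the vessel had blocked the middle cerebral artery for good (PMCAO). All animals were male C57BL/6J mice, 9 weeks old. The occluded animals received saline into the cerebral ventricle straight after the occlusion. Whether the healthy tissue came from animals given that injection is not stated. Each of the 4 arrays held ischemic tissue in one dye and healthy tissue of the same region in the other: 2 arrays compared ischemic with healthy core, and 2 compared ischemic with healthy penumbra. The core is the region that loses most of its blood supply, and the penumbra is the rim around it that keeps some flow. The design text gives 3 mice per group, chosen for neurological grades G1 and G2; it does not say whether RNA was pooled, or from which hemisphere or animals the healthy tissue was cut.

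Potassium channels let potassium leave a cell along its gradient, which sets the resting potential and ends action potentials. Voltage-gated alpha subunits form the pore of channels that open on depolarization, silent subunits join them without forming a channel of their own, and auxiliary subunits change their gating or their number at the membrane. Inward rectifiers and tandem-pore-domain channels carry current near rest, and calcium- or sodium-activated channels couple the membrane to ions inside the cell. When blood flow stops, energy for the sodium-potassium pump fails and potassium accumulates outside neurons, which is why these channels are studied in stroke.

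The 77 genes comprised 25 voltage-gated alpha subunits, 8 silent subunits, 14 inward rectifiers, 9 tandem-pore-domain channels, 7 calcium- or sodium-activated channels and 14 auxiliary subunits. In all, 70 genes were well above background in all 8 channels (2 dyes on 4 arrays). Kcnj1, Kcnj5, Kcnj15 and Kcnv2 were well above background in no channel, Kcnk5 was so in 7, Kcnn4 in 6 and Kcnd1 in 3. A ratio was used where 1 or more of the compared tissues had the probe well above background in both of its channels, which left 71 genes in the core and 72 in every other comparison. No channel gene was saturated. Median spot signal ran from 192 to 225.5 in Cy3 and from 284 to 310 in Cy5, against local backgrounds of 64 to 66 and 70 to 71, and 76.1% to 79.4% of spots were well above background.

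Values are log2 ratios, so that 1 is a doubling, given as the mean of the 2 dye-swapped arrays ± SD. The 2 arrays of a region were taken as the same RNA with the dyes exchanged and counted as 1 replicate, so the SD measures array and dye error and no p-value between animals can be given. A gene was called at 2-fold where its mean was at least 2-fold with at least 1.5-fold on each array, and by the lower rule where the log2 mean was at least 0.32 with at least 1.1-fold on each. "Rose" and "fell" below mean a call by the lower rule. In whole tissue, fewer cells of a type and less RNA per cell cannot be told apart.

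At 6 h, 1 channel gene had more than doubled and most of the others had moved little. Within 0.25 of 0 lay 81.7% of the measured channel genes and 90.3% of all features in the core. The penumbra shares were 80.6% and 85.2%. Kcne4, an auxiliary subunit that damps voltage-gated channels, was called at 2-fold in both regions. Kcnj8, the pore of an ATP-sensitive potassium channel of vascular smooth muscle and pericytes, and Kcna4, a voltage-gated subunit of fast-inactivating currents, rose in both regions too. In the core, 6 of 71 genes (8.45%) were called by the lower rule, 5 higher and 1 lower, against 5.25% of all 24537 features tested. In the penumbra, 7 of 72 (9.72%) were called, 5 higher and 2 lower, against 7.43% of 24926 features. The 2-fold rule called 1 member in each region, beside 0.31% of all features tested in the core and, for the penumbra, 0.245%. The 3 genes that rose in both regions were 50% of the core calls and 42.9% of the penumbra calls, near the 57.0% and 39.6% over all features. The median over the channel genes was 0.02 in the core and -0.02 in the penumbra, beside -0.01 over all features in either region.

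The direction of these counts depends on the scale. The array's spike-in control transcripts (10 probes) had median ratios of 0.47 in the core and 0.46 in the penumbra after loess, so a scale that sets them to 0 lowers every gene by that amount. On that scale the lower rule called 1 channel gene higher and 56 lower in the core, and 1 higher and 54 lower in the penumbra. Over all features it called 135 higher and 20675 lower in the core (84.8% called) and 112 higher and 19776 lower in the penumbra (79.8%), so the member counts there follow the whole array. Every rise or fall given here is therefore relative to the bulk of the features on the array. From the scanner software's own processed signals, 10 members were called higher and 5 lower in the core, with 10 higher and 7 lower in the penumbra; that setting called 11.8% and 16.5% of all features. Centring each penumbra array on its median gave 3 higher and 5 lower there, beside 6.92% of all features called.

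**Figure D1:**
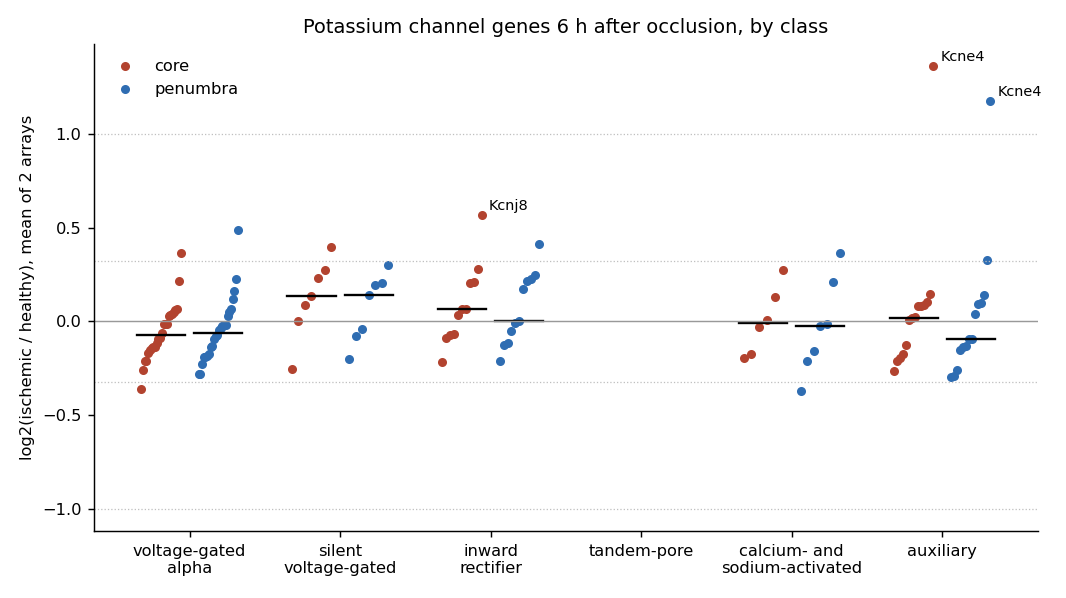
Log2 ratio of ischemic over healthy tissue (mean of 2 arrays) for the measured potassium channel genes, by class, in core (red) and penumbra (blue). The tandem-pore-domain genes are not drawn, so their column is empty. Over the 9 measured, core values ran from -0.21 to 0.35 (median 0.08). Their penumbra values ran from -0.53 to 0.25 (median 0.06). Black bars are class medians and dotted lines mark the sizes of both rules. Kcne4 stands at 1.36 and 1.17, above all other members.

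The promoters of the 3 genes that rose in both regions are printed because these genes share a direction in both tissue pieces. Each is the 250 bases before the annotated start in RefSeq's mouse annotation (GRCm38.p6), 5′ to 3′ on the gene's strand, with capitals on matches to any of 6 motifs searched on both strands. The windows are chr1:78816661-78816910 (plus strand) for Kcne4, chr6:142571615-142571864 (minus strand) for Kcnj8 and chr2:107290339-107290588 (plus strand) for Kcna4.
Kcne4: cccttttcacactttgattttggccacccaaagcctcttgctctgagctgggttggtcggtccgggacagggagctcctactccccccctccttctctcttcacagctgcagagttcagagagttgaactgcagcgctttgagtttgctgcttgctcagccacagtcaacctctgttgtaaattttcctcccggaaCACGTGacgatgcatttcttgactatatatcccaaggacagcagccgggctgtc
Kcnj8: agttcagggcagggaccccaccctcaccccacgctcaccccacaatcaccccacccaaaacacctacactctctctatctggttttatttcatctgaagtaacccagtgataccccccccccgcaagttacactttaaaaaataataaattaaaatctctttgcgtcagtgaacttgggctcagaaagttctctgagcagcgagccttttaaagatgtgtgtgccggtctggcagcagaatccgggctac
Kcna4: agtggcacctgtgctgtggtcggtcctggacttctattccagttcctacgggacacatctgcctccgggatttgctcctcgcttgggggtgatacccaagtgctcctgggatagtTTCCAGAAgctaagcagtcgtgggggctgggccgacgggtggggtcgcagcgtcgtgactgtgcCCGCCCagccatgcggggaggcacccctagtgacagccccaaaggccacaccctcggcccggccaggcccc
The Kcne4 window holds ACGTG, the core of the hypoxia response element, on both strands at once, 54 to 49 bases before the start; 16.6% of all 32851 windows in the table hold this motif. In the Kcna4 window, TTCNNGAA (a pair of heat shock element units) lies 135 to 128 bases before the start and a GC box, GGGCGG on the minus strand, 71 to 66 bases before it. These motifs are in 7.17% and 32.7% of all windows. The Kcnj8 window holds none of the 6. The cyclic AMP response element TGACGTCA (1.55% of all windows), the AP-1 site TGACTCA (4.46%) and the TATA box TATAAA (12.4%) matched in none of the 3. Over the 81 windows listed for 57 of the channel genes, 46.9% held the GC box, 11.1% ACGTG and 2.47% TATAAA. The median share of G and C bases was 58.8% in these windows and 52.4% in all windows. Its part in the motif shares was not tested.

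Kcne4 read 1.28 and 1.44 on the core arrays and 1.06 and 1.29 on the penumbra arrays. Its mean was 1.36 ± 0.11 in the core (2.57-fold) and 1.17 ± 0.16 in the penumbra (2.26-fold). In single channels its normalised log2 intensity was 7.30 and 7.28 in healthy core against 8.58 and 8.72 in ischemic core. Healthy penumbra gave 7.04 and 7.17 and ischemic penumbra 8.10 and 8.45, so healthy and ischemic channels did not overlap in either region. With the spike-ins set to 0, Kcne4 was 0.89 (core) and 0.71 (penumbra) and passed only the lower rule; with Agilent's processed signals it was 1.85 and 1.67. Neutrophil markers were higher in the same ischemic pieces, 5 of 5 in the core (0.56 to 2.49) and 4 of 5 in the penumbra (0.13 to 1.88). Their mean log2 level was 7.96 in healthy core and 9.61 to 9.70 in ischemic core, and 8.16 to 8.26 and 9.29 to 9.49 in healthy and ischemic penumbra. Their part in the Kcne4 values was not tested. Among the other auxiliary subunits, Kcne1l rose in the penumbra (0.30 and 0.36, mean 0.33 ± 0.04) and read 0.12 and 0.04 in the core. Markers of the choroid plexus and ependyma were also higher in ischemic penumbra, 8 of 8 measured by the lower rule, with a median of 0.58, and at a median of 0.01 in the core. Meningeal fibroblast markers were higher there in 3 of 6 (0.38) and markers of thalamus and hypothalamus in 3 of 7 (0.45). Their part in the Kcne1l value was not tested.

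The other 12 auxiliary subunits passed the rule in neither region. Kcnab1, Kcnab2 and Kcnab3, the cytoplasmic beta subunits of Shaker-type channels, read 0.10 ± 0.12, -0.21 ± 0.07 and -0.20 ± 0.12 in the core. Their penumbra values were -0.15 ± 0.12, -0.29 ± 0.04 and -0.09 ± 0.08. The potassium channel-interacting proteins Kcnip1, Kcnip2 and Kcnip3, calcium-binding partners of A-type channels, ranged from -0.26 to -0.12 in the core and from -0.30 to -0.13 in the penumbra. Kcnip4 was at 0.02 and 0.04. Large-conductance calcium-activated channel partners (Kcnmb1, Kcnmb2 and Kcnmb4) stayed between -0.10 and 0.14.

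Of the inward rectifiers, Kcnj8 read 0.57 and 0.56 on the core arrays (0.57 ± 0.01) and 0.44 and 0.38 on the penumbra arrays (0.41 ± 0.04). Its log2 intensity was 11.03 and 11.17 in healthy core and 11.60 and 11.73 in ischemic core. Healthy penumbra gave 11.16 and 11.28 and ischemic penumbra 11.61 and 11.66, again without overlap. Abcc9, the sulfonylurea receptor that pairs with Kcnj8, passed no rule, at 0.10 ± 0.00 (core) and -0.02 ± 0.05 (penumbra). The list of 8 pericyte and smooth muscle markers had medians of -0.11 and -0.06, with 0 higher in the core and 1 in the penumbra. Its mean log2 level was 11.42 to 11.49 in healthy core and 11.30 to 11.33 in ischemic core. The Kcnj8 rise rests on the scale: with spike-ins at 0 it was 0.09 (core) and -0.05 (penumbra), and with median centring the penumbra value was 0.30, short of the rule.

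The other inward rectifiers passed the rule in neither region. Kcnj10, the main channel by which astrocytes take up potassium, read 0.05 and -0.19 in the core and 0.08 and -0.09 in the penumbra, with signs that changed with the dye. Its partner Kcnj16 read -0.07 ± 0.21 and 0.17 ± 0.23. Kcnj11, the neuronal and beta-cell ATP-sensitive pore, read 0.07 ± 0.12 and -0.12 ± 0.07. The G protein-gated subunits Kcnj3, Kcnj6 and Kcnj9 lay between -0.05 and 0.28, and the classical inward rectifiers Kcnj2, Kcnj4, Kcnj12 and Kcnj14 between -0.22 and 0.25.

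Among the voltage-gated alpha subunits, Kcna4 rose in both regions and Kcna5, a delayed rectifier found in vascular muscle and in glia, fell in the core. Kcna4 read 0.32 and 0.41 on the core arrays (0.37 ± 0.06) and 0.43 and 0.54 on the penumbra arrays (0.49 ± 0.08). Kcna5 read -0.34 and -0.39 in the core (-0.36 ± 0.03) and -0.26 and -0.31 in the penumbra (-0.28 ± 0.04), where it missed the rule. In healthy core Kcna5 had log2 intensities of 8.70 and 8.71 against 8.36 and 8.33 in ischemic core; in the penumbra it went from 9.95 and 10.06 to 9.69 and 9.75. With spike-ins at 0, Kcna4 was -0.11 in the core and 0.02 in the penumbra.

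Of the 24 alpha subunits measured, 8 lay above 0 in the core and 7 in the penumbra, with class medians of -0.07 and -0.06. Kcnd2 and Kcnd3, the A-type subunits of dendrites and interneurons, read 0.06 ± 0.20 and 0.21 ± 0.09 in the core and 0.05 ± 0.16 and 0.23 ± 0.04 in the penumbra. The M-current subunits Kcnq3 and Kcnq5 lay between -0.19 and -0.01. Kcnc1, Kcnc2 and Kcnc4, which allow fast repetitive firing, lay between -0.17 and 0.16. Pan-neuronal markers had medians of -0.09 in the core and -0.16 in the penumbra with 0 of 8 called in either.

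Silent subunits had the highest class medians, 0.14 in each region, over 7 measured genes. Kcns2, which modifies the channels it joins, read 0.56 and 0.23 in the core (0.40 ± 0.23) and rose; in the penumbra it read 0.46 and 0.14 (0.30 ± 0.23). Both values were higher where ischemic tissue was in Cy5. The core call was lost with the mean over its 2 probes (0.21) and without core replicate 1 (0.23). Kcnf1 read 0.27 ± 0.06 and 0.21 ± 0.03, under the rule, and Kcng4 -0.25 ± 0.14 and -0.08 ± 0.12.

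Of the tandem-pore-domain channels, Kcnk13 rose in the core and Kcnk2 fell in the penumbra. Kcnk13, a background channel of microglia, read 0.25 and 0.46 in the core (0.35 ± 0.15) and 0.02 and 0.19 in the penumbra (0.10 ± 0.12). The core call was lost without core replicate 2 (0.25). Markers of microglia had a median of -0.01 in the core with 0 of 7 higher and 1 lower. Kcnk2, a channel opened by stretch, lipids and acid inside the cell, read -0.25 and -0.81 in the penumbra (-0.53 ± 0.39). Its core arrays read 0.04 and -0.46 (-0.21 ± 0.35), so in both regions the array with ischemic tissue in Cy3 was the lower. Without penumbra replicate 4 the Kcnk2 value was -0.25 and passed no rule. Kcnk10 read 0.28 ± 0.14 and 0.25 ± 0.18, below the rule.

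Among the calcium- and sodium-activated channels, Kcnn3, a small-conductance channel behind the afterhyperpolarization, rose in the penumbra (0.40 and 0.33, mean 0.36 ± 0.05). In the core it read 0.26 and 0.28 (0.27 ± 0.01), below the rule. Kcnma1, the large-conductance channel, fell in the penumbra (-0.21 and -0.53, mean -0.37 ± 0.22) and read -0.17 ± 0.08 in the core. The Kcnma1 and Kcne1l calls in the penumbra were lost without penumbra replicate 4, at -0.21 and 0.30. With spike-ins at 0, Kcnn3 was -0.10 in the penumbra; with the processed signals it was 0.69. Kcnn2 read 0.13 ± 0.18 and 0.21 ± 0.27, and Kcnt1, the sodium-activated channel, -0.03 ± 0.12 and -0.02 ± 0.11.

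**Figure D2:**
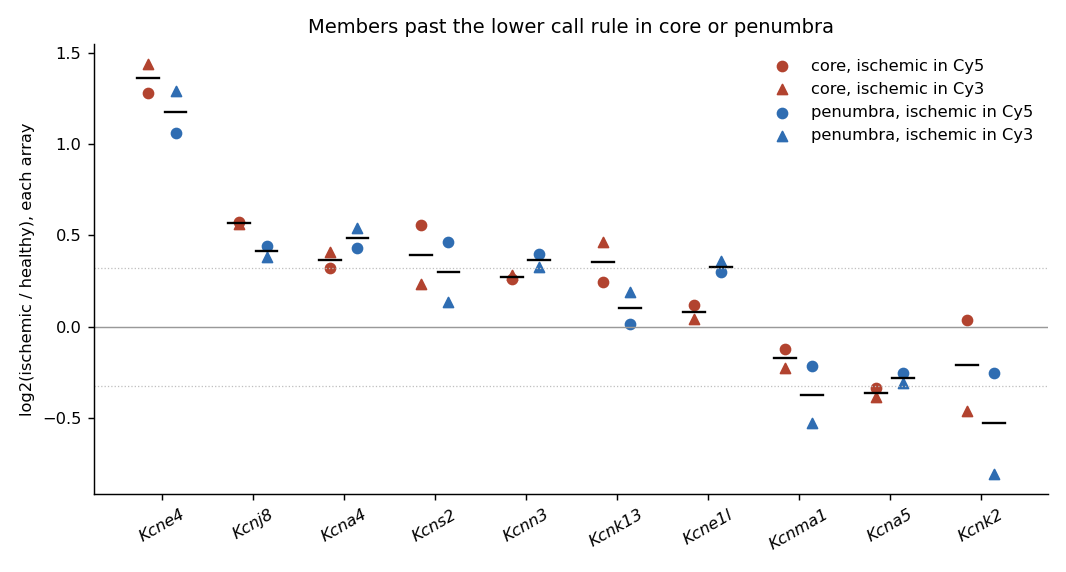
Log2 ratio of ischemic over healthy tissue on each array for the genes past the lower rule in core or penumbra; circles have ischemic tissue in Cy5, triangles in Cy3, bars are means and dotted lines mark a log2 ratio of 0.32 either way. The points of every gene shown except Kcnk2 lie on the same side of 0 on all 4 arrays, and those of Kcnk2 spread from 0.04 to -0.81.

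No channel gene passed a rule for a difference between its core and penumbra responses. A call here needs a difference of at least 2-fold, or of 0.32 by the lower rule. Both core arrays must also lie on one side of both penumbra arrays. None of 72 genes was called by the lower rule for the core ratio minus the penumbra ratio, against 2.99% of 25251 features, and none at 2-fold, against 0.0594%. In limma over the 4 arrays, whose p-values measure the spread between arrays, 0 members had an adjusted p under 0.05 for this difference and 1 an unadjusted p under 0.05. With a dye coefficient in the fit, 5 members (6.94%) had an adjusted p under 0.05, against 7.08% of all features. Those 5 were Kcnk2, Kcnk13, Kcnab1, Kcne1l and Kcnj16, with differences of 0.32 or less in size. In that fit 18 members had an unadjusted p under 0.05. The share of all features with an unadjusted p under 0.05 was not counted, so these member counts have no background to be read against. The largest differences were Kcnk2 (0.32), Kcnv1 (0.27), Kcnab1 (0.25) and Kcnk13 (0.25) towards the core and Kcne1l (-0.25), Kcnh8 (-0.24) and Kcnj16 (-0.24) towards the penumbra. For Kcnv1, Kcnab1 and Kcnj16, other probes of the same gene gave smaller differences. Kcnk3 went the other way, at 0.05 with its brightest probe and 0.30 with its other probe. Probe values ranged from 0.11 to 0.27 for Kcnv1, from 0.12 to 0.25 for Kcnab1 and from -0.24 to -0.02 for Kcnj16. Kcne4 differed by 0.19, Kcnj8 by 0.15 and Kcna4 by -0.12. The median was 0.03 over members and 0.01 over all features.

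Genes that handle potassium beside these channels were given by a list of 24, of which 21 had a probe and 19 were measured. It holds the pump, the cation-chloride transporters, the Hcn pacemaker channels and partners of potassium channels. None of the 19 was called in core or penumbra at either rule. For the core ratio minus the penumbra ratio, 1 of the 19 passed the lower rule. Abcc8, the receptor subunit that pairs with Kcnj11, read -0.09 ± 0.05 and -0.30 ± 0.02, and the pump's glial partner Atp1b2 -0.25 ± 0.16 and -0.26 ± 0.25. Slc12a2, a sodium-potassium-chloride importer, read -0.01 ± 0.17 and 0.04 ± 0.17, and Slc12a5, the potassium-chloride exporter of neurons, 0.04 ± 0.40 and 0.04 ± 0.19.

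More channel genes were called between the tissue pieces than between ischemic and healthy tissue. Kcnab3, Kcnh5, Kcns1 and the G protein-gated rectifiers were higher in healthy core, and Kcna5, Kcnab1 and Kcne1l were higher in healthy penumbra. Healthy core was set against healthy penumbra within each dye, on intensities normalised within and then between arrays. The call rules are those for the arrays, applied to the 2 dyes. The mean must reach the size named above, with at least 1.5-fold (2-fold rule) or 1.1-fold (lower rule) in the same direction in each dye. By the lower rule, 30 of 72 genes (41.7%) were called, against 13.4% of 24896 features. Of these, 22 (30.6%) were higher in core, where 6.83% of features were, and 8 (11.1%) were lower, where 6.59% were. At 2-fold, 4 genes were called, 2 each way, against 1.13% of features. The median was 0.09 over members and 0.01 over all features. No test stands behind these shares, since each region gave 1 pair of arrays.

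Marker genes differed between the same healthy pieces. Markers of striatal projection neurons had a median of -1.92, with 8 of 9 lower in core at 2-fold and mean log2 levels of 12.17 to 12.19 in core and 13.87 in penumbra. Choroid plexus and ependyma markers had a median of -3.34, with 7 of 8 lower at 2-fold and levels of 7.60 in core and 10.81 to 10.84 in penumbra. All 6 oligodendrocyte markers were lower by the lower rule, with a median of -0.70 and levels of 13.74 to 13.88 against 14.40 to 14.61. Cortical projection neuron markers were higher in core for 5 of 8 and lower for 1, with a median of 0.40 and levels of 11.47 to 11.52 against 11.10 to 11.13. Meningeal fibroblast markers were higher for 5 of 6 (0.76), and astrocyte markers were called in 0 of 7 (0.12). Interneuron markers had a median of 0.08 with 1 of 7 higher and 2 lower, and pan-neuronal markers 0.20 with 3 of 8 higher. Which part of the channel differences goes with each list was not tested.

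Auxiliary subunits held both the highest member, Kcnab3, and one of the lowest, Kcnab1. Kcnab3 was higher in core by 1.71 in Cy3 and 1.75 in Cy5 (1.73 ± 0.03); its log2 intensity was 12.82 and 12.77 in healthy core and 11.11 and 11.02 in healthy penumbra. Kcnab1 was lower by 1.22 and 1.26 (-1.24 ± 0.02), with 13.30 and 13.43 in healthy core and 14.52 and 14.69 in healthy penumbra. The dimmer probe of Kcnab1 gave -0.91, short of 2-fold. The 3 beta subunits therefore did not run together, with Kcnab2 higher in core by 0.43 ± 0.07. Kcnip1 was higher by 0.64 ± 0.08 while Kcnip2 was lower (-0.49 ± 0.01), and Kcne1l was lower (-0.77 ± 0.00). Kcne4 read 0.19 ± 0.10, under the rule.

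Voltage-gated alpha subunits gave 7 genes higher and 3 lower. Kcna5 was lowest, at -1.25 and -1.35 (-1.30 ± 0.07), and Kcna4 read -0.74 and -0.48 (-0.61 ± 0.19). Kcna2, a subunit of axons, went the other way at 0.50 ± 0.08. Kcnd2 was lower (-0.42 ± 0.10). Of the ether-a-go-go family, Kcnh5 was higher by 1.03 and 0.97 (1.00 ± 0.04), which lies on the 2-fold line and was lost to that rule with Cy5 alone, Kcnh7 by 0.83 ± 0.01 and Kcnh1 by 0.44 ± 0.16. Kcnc1, a subunit of fast-firing neurons, was higher by 0.81 ± 0.08, though its 3 probes ranged from 0.37 to 0.81.

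Silent subunits had a class median of 0.62 and 4 of 7 higher in core: Kcns1 (0.89 ± 0.04), Kcng4 (0.75 ± 0.05), Kcnv1 (0.70 ± 0.13) and Kcns3 (0.62 ± 0.00). None was lower. The G protein-gated inward rectifiers Kcnj9, Kcnj6 and Kcnj3 were higher, by 0.80 ± 0.04, 0.65 ± 0.04 and 0.52 ± 0.05. Kcnj16 was higher by 0.60 ± 0.22, but its 3 probes ranged from -0.25 to 0.60 and the call was lost with their mean. Kcnj10 read 0.10 ± 0.13 and Kcnj8 -0.12 ± 0.02.

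Tandem-pore-domain channels split: Kcnk4, which responds to stretch, was higher by 0.93 ± 0.07, Kcnk12 by 0.54 ± 0.07 and the acid-sensitive Kcnk3 by 0.43 ± 0.11. Kcnk2, a close relative of Kcnk4, was lower (-0.62 ± 0.11), as was Kcnk13 (-0.57 ± 0.02). Of the calcium- and sodium-activated channels only Kcnma1 was called, higher by 0.46 ± 0.16; Kcnn3 read -0.30 ± 0.04. Beside the channels, the list of 24 had 5 genes higher, among them Abcc8 (0.55), Dpp10 (0.43) and Lrrc55 (0.38), and Slc12a2 lower (-0.68).

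**Figure D3:**
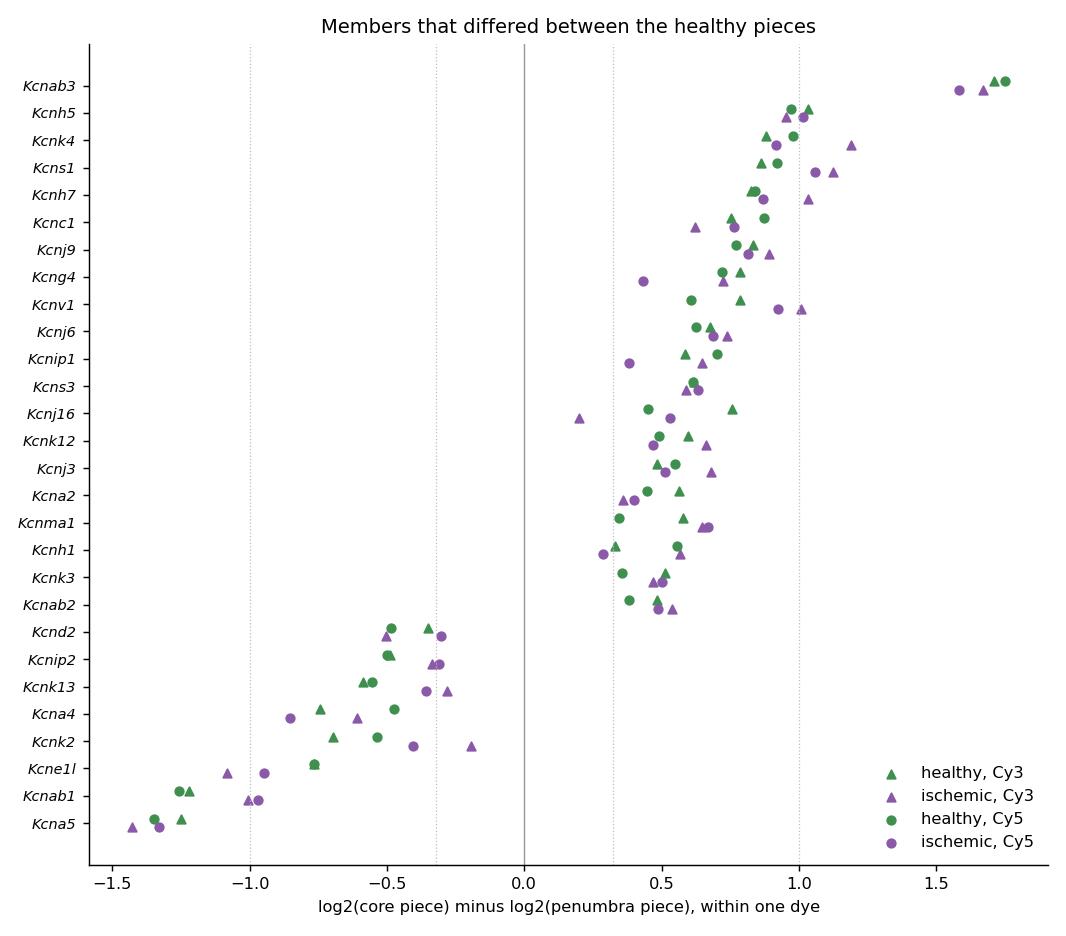
Log2 level in the core piece minus the penumbra piece for 28 of the 30 genes called between healthy pieces; green points compare healthy tissue and purple points ischemic tissue, triangles in Cy3 and circles in Cy5, with dotted lines at the sizes of both rules. Kcnab3 stands highest (1.73 in healthy tissue, 1.63 in ischemic) and Kcna5 lowest (-1.30 and -1.38), and every gene shown keeps its direction in ischemic tissue.

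Ischemic core set against ischemic penumbra called 33 of 72 genes by the lower rule (45.8%, 25 higher and 8 lower) against 16.8% of 24877 features, and 5 at 2-fold against 1.34%. The ischemic pieces use the other channel of the same arrays. With 28 genes shared in the same direction, 93.3% of the healthy calls and 84.8% of the ischemic calls overlapped, beside 76.1% and 60.7% over all features; no test stands behind this. Kcnab3 read 1.67 and 1.58 (1.63 ± 0.06), Kcns1 1.13 and 1.06 (1.09 ± 0.05) and Kcnk4 1.19 and 0.92 (1.05 ± 0.19), all past 2-fold. Kcna5 read -1.43 and -1.33 (-1.38 ± 0.07) and Kcne1l -1.08 and -0.95 (-1.01 ± 0.09), past 2-fold the other way. The 2-fold calls of Kcnk4 and Kcne1l were lost with Cy5 alone. Kcnab1 read -0.99 ± 0.03. Kcnk2 and Kcnk13, called between healthy pieces, read -0.30 ± 0.15 and -0.32 ± 0.06 and passed no rule here. Kcne4 reached 0.37 ± 0.16 and was called here.

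**Figure D4:**
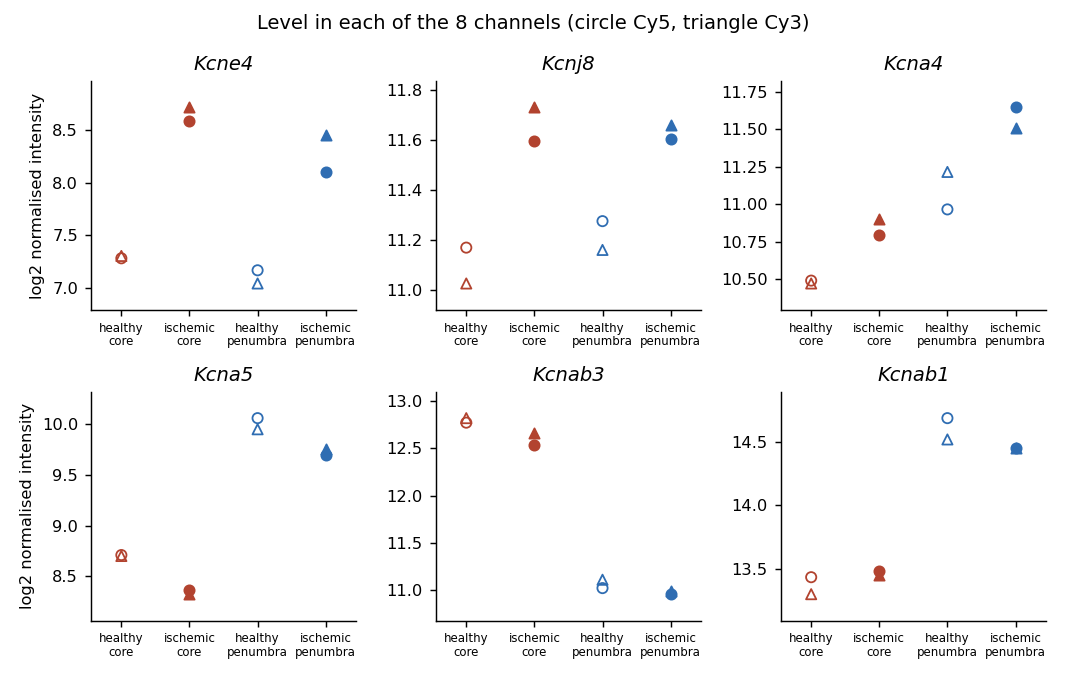
Log2 normalised intensity of 6 genes in each of the 8 channels, healthy (open) and ischemic (filled), core (red) and penumbra (blue), circles in Cy5 and triangles in Cy3; each panel has its own axis, which does not start at 0. Kcne4 and Kcnj8 lie higher in ischemic than in healthy channels of each region. Kcnab3 (11.02 to 11.11 in healthy penumbra, 12.77 to 12.82 in healthy core) and Kcnab1 lie apart by piece, and Kcna4 and Kcna5 by piece and, within each piece, by ischemia.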

How the data were processed

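The 4 arrays are 2-colour Agilent 4x44K expression arrays on 1 slide. Per the file headers, the authors read the scans with version 11.0.1.1 of Agilent Feature Extraction, which wrote the deposited spot intensities of each dye and their local backgrounds. The authors' table of log10 ratios, with column medians of -0.0215 to 0.0052, was not centred here and equals Cy5 over Cy3 of that software's processed intensities within 5e-06. Spot quality marks (other) come from the same deposited files. Median intensities were background-corrected here with normexp (offset 50) and normalised within arrays by loess in limma 3.58.1 (R 4.3.3), with control and outlier spots at weight 0. Ratios were turned to ischemic over healthy by the dyes in the labels. Single channels were scaled by Aquantile. Probes were named through RefSeq accessions (23366 of 41174). Genes named are, per comparison, the 10 highest and 10 lowest members with the same sign on both arrays, every 2-fold call, 2 bright members per class and the potassium handling list; further members were named after their values were seen. The members and lists were chosen with earlier results of these data known. The loess step was tested on simulated data. Alternatives were processed signals, median centring, spike-in scaling, no filter on dim probes, the mean over probes, quantile scaling, limma over arrays and each array left out. Some genes are not reported here.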

Additional observations from a re-analysis of the deposited data

Results flagged for a closer look

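Kcnab1, a cytoplasmic beta subunit, read above 0 on both core arrays (mean 0.10) and below 0 on both penumbra arrays (mean -0.15). The core response minus the penumbra response was 0.25, or 0.12 with the dimmer probe of Kcnab1. It was picked out because the arrays of the regions lie on opposite sides of 0; neither value passed a call rule. In limma over the arrays the difference had an adjusted p of 1.00, or 0.039 with a dye coefficient; both measure the spread between arrays, and a difference between animals was not tested.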

How the results depend on the processing

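No paired analysis was possible because the core and penumbra arrays share no replicate number. With spike-ins set to 0, the channel genes called in the core were 0 at 2-fold and 57 by the lower rule with a median of -0.45, and in the penumbra 0 and 55 with a median of -0.49, where 84.8% and 79.8% of all features passed the lower rule; in the core Kcna4 (-0.11), Kcnk13 (-0.12) and Kcns2 (-0.079) changed sign, as did Kcne1l (-0.13), Kcnj8 (-0.049) and Kcnn3 (-0.10) in the penumbra. With Agilent's processed signals, the lower rule called 15 genes in the core, 17 in the penumbra and 4 for the difference between responses. It called 11.8%, 16.5% and 9.39% of all features there. At 2-fold, that setting called 7 genes between healthy pieces and 8 between ischemic pieces, beside 3.41% and 4.16% of all features. The medians were 0.12 and 0.18. Median centring gave a penumbra median of -0.074 and 1 gene called by the lower rule for the difference (3.22% of all features). Leaving out 1 array at a time gave 10 to 11 such calls in the core, 9 to 13 in the penumbra and 3 to 8 for the difference (9.05% to 10.4%, 9.87% to 15.5% and 5.62% to 8.63% of all features), with penumbra medians of -0.029 to 0.0044 and difference medians of 0.0034 to 0.073. With 1 dye alone, the median between healthy pieces was 0.10 to 0.12. Between ischemic pieces it was 0.12 to 0.15, with 4 to 8 calls at 2-fold (1.67% to 2.19% of all features). limma over the arrays called Kcne4 alone at 2-fold in each region, with and without a dye coefficient. By an adjusted p under 0.05 alone, without that coefficient, it called 2.82% of members in the core and 2.78% in the penumbra. Over all features it called 1.58% and 1.82%. With the coefficient these were 47.9% and 59.7% of members, against 29.5% and 42.9% of all features. The limma p-values measure the spread between arrays. Of 1052 values for single genes under an alternative, 888 moved by less than 1 SD. Many of the 888 could not have come out otherwise, so their share does not measure robustness. Leaving out 1 array or dye of a pair always moves the mean of that pair by less than its SD. Dropping the filter on dim probes leaves the values of measured genes as they were. The mean over probes does the same for the 55 genes with 1 probe. Of the 1052 values, 66 changed sign. Spike-in scaling accounts for 27 of these, among them the 6 genes named above, whose main values had passed a rule; the other 39 had main values of at most 0.18 in size. Dim probes limit Kcnj1, Kcnj5, Kcnj15, Kcnv2 and Kcnd1, which have no ratio, and 4 arrays limit the precision of all values. The cause of these shifts was not tested.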
